A study of Drosophila melanogaster with 10 samples.

Results

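The genes described here are members of the Notch signalling pathway together with the paralogous cell adhesion genes *ed* (echinoid) and *fred* (friend of echinoid), followed in 2 populations of cultured *Drosophila melanogaster* cells. Cha samples were sorted from a strain with a Gal4 driver under 7.4 kb of DNA from *Cha*, the choline acetyltransferase locus, and a UAS transgene for green fluorescent protein (GFP). Gad samples were sorted from a strain that carries 2.1 kb of DNA from *Gad1*, the glutamate decarboxylase locus, in front of a red fluorescent protein (RFP). Both kinds of culture came from early gastrula embryos, laid by adults that were 2 weeks old, and were grown for 5 to 7 days at 25 C. Total RNA of 5 Cha and 5 Gad samples was hybridised to Affymetrix arrays. A reporter fragment marks the cells in which that fragment is active, which need not be all cells that use the gene, and each group is 1 strain, so reporter, strain and cell type cannot be told apart. Members were chosen by name from the platform annotation, with the brightest probe set standing for each gene. Of the 10 genes listed, 7 had a probe set of their own and are described: *fred*, *ed*, *Dl*, *kuz*, *neur*, *mam* and *H*. *N*, *Ser* and *Su(H)* were not analysed here, so the receptor itself and its DNA-binding partner are missing from what follows. The 7 genes stand among 11983 genes measured in the series. All 7 were brighter than the 40th percentile of their array on all 10 arrays, a level below which a gene is called dim here. *fred* was chosen for its difference between the groups and is therefore described without a test.

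Notch is a receptor activated by a ligand on a neighbouring cell. Binding by Delta or Serrate exposes the receptor to cleavage by an ADAM metalloprotease and then by gamma-secretase, and the freed intracellular part enters the nucleus, where it joins Suppressor of Hairless and Mastermind to switch on target genes. In the fly nervous system the pathway holds back neuronal fate during lateral inhibition, through the repressors of the Enhancer of split locus, and separates the fates of sister cells after asymmetric divisions. Echinoid and Friend of echinoid are immunoglobulin-domain adhesion proteins. Both interact genetically with Notch in the embryo and in sense organs, and Echinoid also antagonises the EGF receptor.

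Levels are the authors' log2 values from RMA, and differences are Cha minus Gad, so a difference of 1 is a doubling. The level of one probe set cannot be set against that of another, so only differences between arrays are compared. Of the 11983 genes, 2212 (18.5%) passed an adjusted p of 0.05 (limma, Benjamini-Hochberg over all genes). Of these, 984 (8.21%) were higher in Cha and 1228 (10.2%) higher in Gad. The groups did not overlap in 1622 genes (13.5%). An unadjusted p under 0.05 in the limma fit was reached by 3809 of the 11983. The median difference over all genes was 0.04. Nothing in the labels states that replicates were separate cultures, so the spread that p-values measure is only that among these samples and may be technical. Correlations between arrays were 0.971 to 0.990 within Cha, 0.989 to 0.997 within Gad and 0.954 to 0.983 between the groups. Gad replicates 4 and 5 were the most alike, with an SD of 0.188 for the differences between them; the next pair of Gad arrays had 0.280. No marker of the labelled identities passed, and the GABAergic ones did not run with the Gad label. *ChAT* and *VAChT* differed by 0.68 and 0.22, with adjusted p of 0.0670 and 0.430 in the limma fit (unadjusted p under 0.05 for 1 of the 2). *Gad1* averaged 12.49 in Cha and 12.37 in Gad, and *VGAT* 8.32 in Cha and 7.83 in Gad, with adjusted p of 0.626 and 0.186 (unadjusted p under 0.05 for 0 of the 2). In RNA of sorted cells in bulk, fewer cells of a type and less RNA per cell cannot be told apart.

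*fred* stood out by the choice that put it here. Its values were 9.94, 9.71, 8.67, 8.34 and 9.15 in Cha replicates 1 to 5, against 5.96, 5.71, 6.21, 6.04 and 6.14 in Gad replicates 1 to 5. The lowest Cha array lay more than 2 log2 units above the highest Gad array, and the Cha arrays were spread more widely than the Gad arrays. The means were 9.16 ± 0.68 in Cha and 6.01 ± 0.20 in Gad (SD, n = 5 each), a difference of 3.15 or 8.88-fold. A single probe set measures the gene.

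*ed*, the paralogue that gave the pair its name, showed no such separation. It had 6.86, 6.63, 6.43, 6.62 and 6.63 in Cha, against 6.48, 6.35, 6.47, 6.56 and 6.52 in Gad. The groups overlapped, and only the first Cha array lay clearly above the rest. The means were 6.63 ± 0.15 in Cha and 6.48 ± 0.08 in Gad (SD, n = 5 each). The difference was 0.16 with a standard error of 0.09, a 95% interval of -0.05 to 0.37 and an adjusted p of 0.277 in the limma fit. No test was made between the paralogues, because *fred* was chosen for its value.

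**Figure D1:**
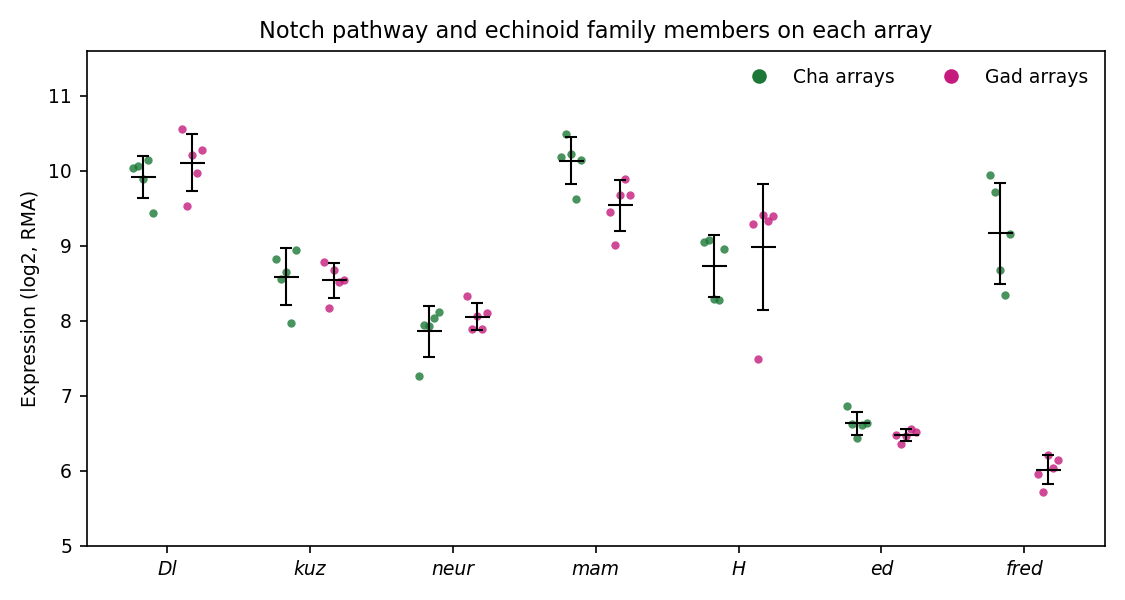
Log2 expression (vertical axis) of the 7 measured genes (horizontal axis), with 5 Cha arrays left of 5 Gad arrays for each gene; points are arrays and bars are group means with SD, and heights of different genes are not comparable. *fred* is the gene whose Cha arrays (8.34 to 9.94) are all above its Gad arrays (5.71 to 6.21), and the groups of the other 6 genes overlap.

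None of the other 6 measured members passed the threshold (0 of 6, limma, against 18.5% of all genes). An unadjusted p under 0.05 was reached by 1 of them, *mam*, and by 3809 of 11983 over all genes. None of the 6 had groups that did not overlap, against 13.5% of all genes. Their median difference was -0.07, beside 0.04 over all genes.

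*Dl* encodes the ligand Delta. Its brightest probe set, listed under the name Delta, had 10.04, 10.06, 9.89, 10.14 and 9.44 in Cha, against 10.56, 9.53, 10.21, 9.97 and 10.28 in Gad. High and low arrays occurred in both groups. The difference was -0.19 with a standard error of 0.19, a 95% interval of -0.62 to 0.23 and an adjusted p of 0.539. With 1 array left out it ran between -0.34 (without Gad replicate 2) and -0.08 (without Cha replicate 5). A second probe set of *Dl* averaged 7.10 ± 0.68 in Cha and 7.69 ± 0.48 in Gad (SD, n = 5 each), a difference of -0.60 with an adjusted p of 0.264 over all probe sets in the limma fit. On it, Cha replicate 5 was lowest at 6.08, as it was on the brighter probe set.

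*neur* encodes Neuralized, the ubiquitin ligase that sends Delta into endocytosis in the signalling cell. It had 7.26, 7.94, 7.93, 8.03 and 8.11 in Cha, against 8.33, 7.89, 8.06, 7.89 and 8.10 in Gad. Apart from the low first Cha array, the values of both groups lay in the same narrow range. The difference was -0.20 with a 95% interval of -0.55 to 0.16 and an adjusted p of 0.440, and without Cha replicate 1 it was -0.05.

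*kuz* encodes Kuzbanian, the ADAM metalloprotease that makes the ligand-dependent cut in Notch. Its values were 8.82, 8.56, 8.65, 7.97 and 8.94 in Cha, against 8.79, 8.18, 8.68, 8.52 and 8.54 in Gad. The highest and the lowest array were both Cha arrays. The difference was 0.05 with a 95% interval of -0.35 to 0.45 and an adjusted p of 0.885, and it turned slightly negative on leaving out Cha array 1 (-0.01), Cha array 5 (-0.04) or Gad array 2 (-0.04).

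*mam* encodes Mastermind, the co-activator of the nuclear Notch complex. It had 10.19, 10.49, 10.22, 9.62 and 10.14 in Cha, against 9.45, 9.0, 9.68, 9.89 and 9.68 in Gad. Of the Cha arrays 4 were above every Gad array, and Cha replicate 4 was below Gad replicates 3, 4 and 5. The means were 10.13 ± 0.32 in Cha and 9.54 ± 0.34 in Gad (SD, n = 5 each). The difference was 0.59 with a standard error of 0.19, a 95% interval of 0.18 to 1.01 and an adjusted p of 0.0512, just short of the threshold. Without Cha replicate 4 the difference was 0.72 with an adjusted p of 0.0135, and without Gad replicate 4 it was 0.68 with an adjusted p of 0.0382. Over all genes, leaving out Cha replicate 4 raised the number higher in Cha from 984 to 1252. A second, dimmer probe set of *mam* averaged 5.89 ± 0.10 in Cha and 5.87 ± 0.15 in Gad (SD, n = 5 each), with an adjusted p of 0.944 in the limma fit.

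*H* encodes Hairless, the adaptor that turns Suppressor of Hairless into a repressor. It had 9.05, 9.08, 8.29, 8.28 and 8.95 in Cha, against 9.29, 7.48, 9.40, 9.33 and 9.39 in Gad. Of the Gad arrays 4 were above every Cha array, and Gad replicate 2 was the lowest of all 10. The difference was -0.25 with a standard error of 0.36, a 95% interval of -1.05 to 0.55 and an adjusted p of 0.680. Without Gad replicate 2 it was -0.62 with an adjusted p of 0.0584, and with any other array left out it lay between -0.34 and -0.14. The second probe set of *H* averaged 7.32 ± 0.23 in Cha and 7.45 ± 0.16 in Gad (SD, n = 5 each), with an adjusted p of 0.552, and there Gad replicate 2 had 7.27 among Gad values of 7.27 to 7.64.

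The members were then counted together with other genes, listed by role. The lists also cover junction adhesion genes and the EGF receptor pathway, and all are called pathway genes here. Apart from *fred*, which was not counted, 79 of the 103 listed genes were measured, the other 6 measured members among them. Of these, 8 were higher in Cha (10.1%, against 8.21% of all genes) and 12 higher in Gad (15.2%, against 10.2%). The other 59 did not pass, and the median difference was -0.08. The calls were spread over several roles, and 8 of the 20 held in every alternative fit tried: *Nak*, *l(2)gl*, *Fur2*, *Hesr*, *E(spl)m3-HLH*, *baz*, *Egfr* and *aos*.

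**Figure D2:**
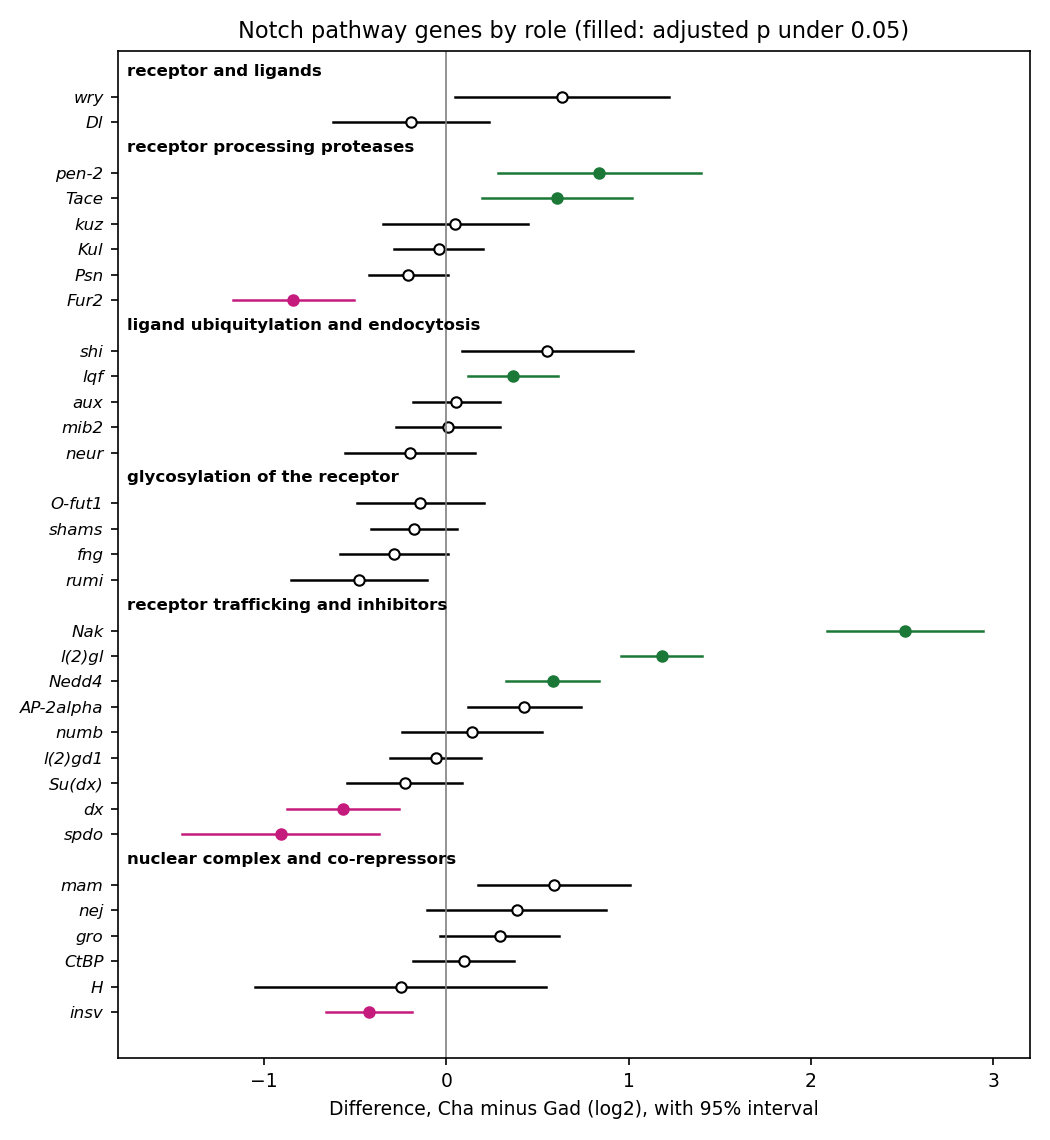
Cha minus Gad difference in log2 expression (horizontal axis) with its 95% interval for each measured gene of the first 6 pathway lists, grouped by role down the vertical axis; filled points passed the adjusted p of 0.05 and open points did not. *Nak*, at 2.51, lies farthest to the right and *spdo*, at -0.91, farthest to the left.

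Among ligands and receptor processing, 3 genes passed, all of them on the receptor processing list. *wry*, listed here as a proposed further ligand, differed by 0.64 with an adjusted p of 0.126, and by 0.85 with an adjusted p of 0.0162 without Cha replicate 4. Of 6 measured genes of receptor processing, 2 were higher in Cha (33.3%, against 8.21% of all genes) and 1 higher in Gad (16.7%, against 10.2%). *pen-2*, a gamma-secretase subunit, had 9.37, 9.40, 10.82, 9.83 and 9.95 in Cha, against 9.48, 9.0, 8.89, 8.92 and 8.88 in Gad. Its groups overlapped through Gad replicate 1, and the difference of 0.84 had an adjusted p of 0.0410. *Tace*, an ADAM metalloprotease related to Kuzbanian, had 10.21, 10.95, 10.80, 10.29 and 10.76 in Cha, against 10.18, 9.73, 9.65, 10.43 and 9.98 in Gad. Its groups overlapped through Gad replicate 4, and the difference of 0.61 had an adjusted p of 0.0447. Both calls were fragile. That of *pen-2* was lost on leaving out Cha array 4 or 5 or Gad array 2, 3, 4 or 5 (adjusted p up to 0.0951). That of *Tace* was lost on leaving out Cha array 2, 3 or 5 or Gad array 1, 2, 3 or 5 (adjusted p up to 0.112).

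*Fur2*, a furin-type convertase, went the other way. It had 9.85, 9.97, 9.59, 9.25 and 9.89 in Cha, against 10.36, 10.64, 10.84, 10.42 and 10.49 in Gad. Every Cha array was below every Gad array, and the difference of -0.84 (standard error 0.15) had an adjusted p of 0.00426. *Psn*, the catalytic subunit of gamma-secretase, differed by -0.21 with an adjusted p of 0.174.

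In the signalling cell, 1 of 5 measured genes of ligand ubiquitylation and endocytosis passed (limma, against 18.5% of all genes). It was higher in Cha, as were 8.21% of all genes. *lqf*, the epsin needed for ligand endocytosis, averaged 9.84 ± 0.19 in Cha and 9.48 ± 0.14 in Gad (SD, n = 5 each). Its difference of 0.36 had an adjusted p of 0.0452, which was lost on leaving out Cha array 2, 3 or 5 or Gad array 2, 3, 4 or 5 (up to 0.108). *shi*, the dynamin, differed by 0.55 with an adjusted p of 0.0966, and by 0.67 with an adjusted p of 0.0403 without Cha replicate 4. *mib2* differed by 0.01 and *aux*, auxilin, by 0.06.

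None of the 4 genes that glycosylate the receptor passed (0 of 4, limma, against 18.5% of all genes). Of the 4, 1 had an unadjusted p under 0.05, as did 3809 of 11983 over all genes. That gene was *rumi*, a glucosyltransferase, with a difference of -0.48 and an adjusted p of 0.0735. It passed without Cha replicate 5 (-0.58, adjusted p 0.0311) or without Gad replicate 4 (-0.58, adjusted p 0.0359). *fng*, the glycosyltransferase that sets which ligand Notch answers, differed by -0.28 with an adjusted p of 0.174. All 4 fitted differences were below 0.

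Receptor trafficking and inhibition held the largest difference of the pathway genes tested, that of *Nak*. Of its 9 measured genes 3 were higher in Cha (33.3%, against 8.21% of all genes) and 2 higher in Gad (22.2%, against 10.2%). *Nak* encodes Numb-associated kinase, a kinase of the clathrin pathway named for its binding to Numb. It had 8.82, 8.35, 7.93, 7.89 and 8.66 in Cha, against 5.52, 5.69, 5.81, 5.96 and 6.10 in Gad. The groups lay almost 2 log2 units apart at their nearest arrays. The means were 8.33 ± 0.42 in Cha and 5.82 ± 0.23 in Gad (SD, n = 5 each), a difference of 2.51 (standard error 0.19) or 5.71-fold, with an adjusted p of 3.67e-05.

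*l(2)gl* encodes the cortical polarity protein Lethal giant larvae, which acts with Numb and Sanpodo in asymmetric division. It had 9.74, 9.68, 9.77, 10.10 and 9.77 in Cha, against 8.76, 8.52, 8.69, 8.51 and 8.67 in Gad. Both groups were tight and did not overlap. The difference was 1.18 (standard error 0.10) or 2.27-fold, with an adjusted p of 7.16e-05.

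*Nedd4*, a ubiquitin ligase that down-regulates Notch, had 8.92, 8.63, 8.82, 8.67 and 9.19 in Cha, against 8.44, 8.22, 8.19, 8.27 and 8.20 in Gad. The groups did not overlap, and the difference of 0.58 had an adjusted p of 0.00659. A second probe set of *Nedd4* was dim on every array and differed by -0.09. With both probe sets averaged the difference was 0.24 with an adjusted p of 0.0808.

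The 2 genes of this list that were higher in Gad were *dx* and *spdo*. *dx*, the ubiquitin ligase Deltex, had 7.52, 7.31, 6.76, 7.38 and 7.30 in Cha, against 7.65, 7.94, 7.98, 7.81 and 7.74 in Gad. The groups did not overlap, and the difference of -0.57 had an adjusted p of 0.0177, which became 0.0503 without Gad replicate 3. *spdo*, the transmembrane protein Sanpodo that promotes Notch signalling after asymmetric division, had 6.50, 7.25, 7.47, 7.86 and 6.51 in Cha, against 8.17, 8.06, 7.84, 7.92 and 8.14 in Gad. Cha replicate 4 reached into the Gad range, and the difference of -0.91 had an adjusted p of 0.0269. The call was lost without Gad replicate 1, 2 or 5 (adjusted p 0.0574 to 0.0618).

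*numb* itself, the inhibitor of Notch inherited by 1 daughter of such a division, differed by 0.14 with an adjusted p of 0.626. *AP-2alpha*, the adaptor subunit bound by Numb, averaged 10.04 ± 0.12 in Cha and 9.61 ± 0.30 in Gad (SD, n = 5 each). Its adjusted p was 0.0573 in the limma fit, and 0.0199 without Gad replicate 4. *Su(dx)*, a ubiquitin ligase, differed by -0.23 with an adjusted p of 0.304.

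**Figure D3:**
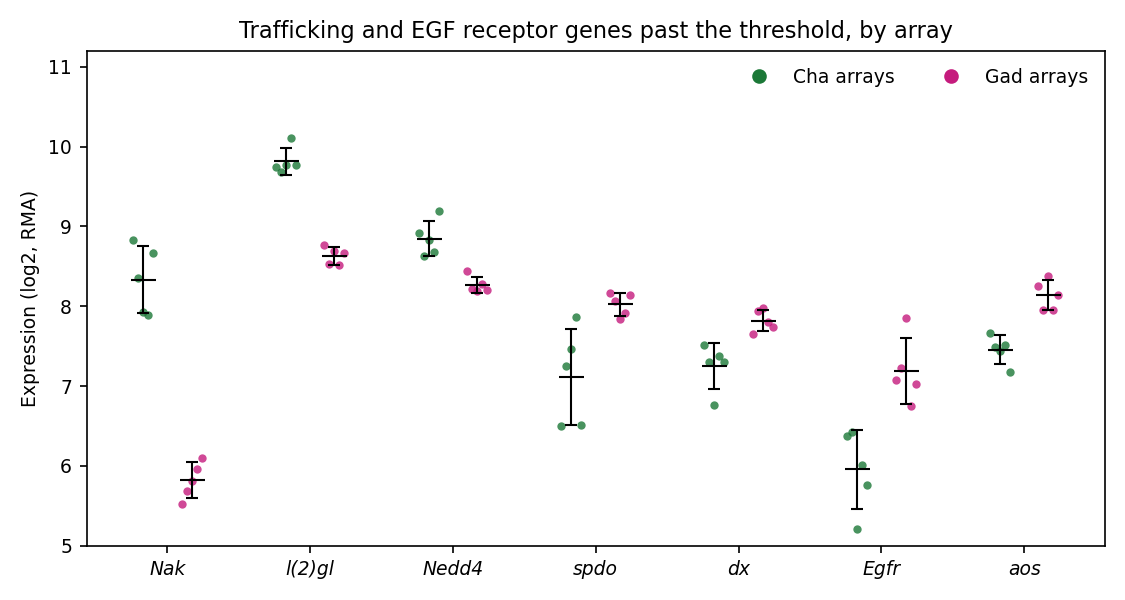
Log2 expression (vertical axis) of the genes of receptor trafficking that passed the threshold, and of *Egfr* and *aos*, with Cha arrays left of Gad arrays for each gene; points are arrays and bars are group means with SD. *Nak*, *l(2)gl* and *Nedd4* are higher in Cha and *spdo*, *dx*, *Egfr* and *aos* higher in Gad, and of these only *spdo* has groups that overlap.

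In the nucleus, 1 of 6 measured genes passed (16.7%, higher in Gad, against 10.2% of all genes). *insv* encodes Insensitive, a co-repressor that acts with Suppressor of Hairless. It had 7.32, 7.64, 7.66, 7.74 and 7.54 in Cha, against 8.23, 7.95, 7.84, 8.04 and 7.97 in Gad. The groups did not overlap, and the difference of -0.42 had an adjusted p of 0.0197. The general co-repressors *gro* and *CtBP* differed by 0.29 and 0.10, and the co-activator *nej* by 0.39, with adjusted p of 0.205, 0.649 and 0.264.

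Genes listed here as targets of the pathway lay mostly on the Gad side. The lists held basic helix-loop-helix (bHLH) repressors of the Enhancer of split kind, Bearded-family genes and other genes of the Enhancer of split locus. Of 20 genes listed, 17 were measured and are called target genes below. None was higher in Cha and 4 were higher in Gad (23.5%, against 10.2% of all genes). An unadjusted p under 0.05 was reached by 5 of the 17, and by 3809 of 11983 over all genes. The median difference was -0.47, beside 0.04 over all genes, and 15 of the 17 fitted differences were below 0, as were 5153 of 11983 over all genes. The genes of a locus are neighbours and share regulation, so they are not independent of each other. Not all 17 lie in the Enhancer of split locus, and whether each answers Notch in these cells was not tested.

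*Hesr*, a bHLH-Orange repressor related to Hairy, had 4.91, 4.58, 5.00, 4.80 and 5.19 in Cha, against 6.65, 7.22, 6.47, 5.46 and 6.10 in Gad. The groups did not overlap. The means were 4.90 ± 0.23 in Cha and 6.38 ± 0.65 in Gad (SD, n = 5 each), a difference of -1.49 (standard error 0.27) with an adjusted p of 0.00468. It was dim on 2 of the 5 Cha arrays, where RMA compresses differences.

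*E(spl)m3-HLH*, a repressor of the locus, had 11.34, 11.21, 11.16, 11.31 and 10.84 in Cha, against 12.33, 11.88, 11.98, 11.59 and 11.72 in Gad. Every Cha array was below every Gad array, and the difference of -0.73 (standard error 0.15) had an adjusted p of 0.00730. *E(spl)m4-BFM*, a Bearded-family protein that restrains Neuralized, had 5.23, 5.47, 5.29, 5.51 and 5.28 in Cha, against 6.55, 7.72, 6.09, 5.94 and 6.46 in Gad. Its groups did not overlap, Gad replicate 2 was well above the other Gad arrays, and the difference of -1.20 had an adjusted p of 0.0143.

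*E(spl)m2-BFM*, also of the Bearded family, had 8.62, 8.43, 8.18, 8.81 and 8.32 in Cha, against 9.31, 9.43, 9.25, 8.67 and 8.71 in Gad. Gad replicates 4 and 5 lay within the Cha range. The difference of -0.60 had an adjusted p of 0.0391, which was lost on leaving out Cha array 2, 3 or 5 or Gad array 1, 2 or 3 (up to 0.0969).

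The target genes that did not pass varied within the groups. *E(spl)m7-HLH* ran between 6.62 and 8.92 in Cha and between 7.86 and 9.05 in Gad, with a difference of -0.50 and an adjusted p of 0.432. *dpn*, a repressor used by neuroblasts, had 6.74, 7.70, 9.06, 9.09 and 6.60 in Cha, against 9.82, 8.95, 8.87, 9.08 and 8.98 in Gad. Cha replicates 3 and 4 lay in the Gad range, and the difference of -1.30 had an adjusted p of 0.0899. It passed without Cha replicate 3 (adjusted p 0.0447) or Cha replicate 4 (0.0267).

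The 2 fitted differences above 0 were those of *E(spl)m6-BFM*, at 0.16, and of *Kaz-m1*. *E(spl)m6-BFM* was dim on 3 Cha and 5 Gad arrays, and *BobA*, among those below 0, was dim on all 10. With dim probe sets removed, 14 of 15 target genes had differences below 0. *Kaz-m1*, the Kazal-type gene of the locus, had 10.88, 8.36, 9.86, 10.78 and 6.57 in Cha, against 7.72, 8.77, 8.21, 7.62 and 7.81 in Gad. The Cha arrays alone spanned more than 4 log2 units, and the difference of 1.26 had an adjusted p of 0.262. Without Cha replicate 5 it was 1.94 with an adjusted p of 0.0214.

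**Figure D4:**
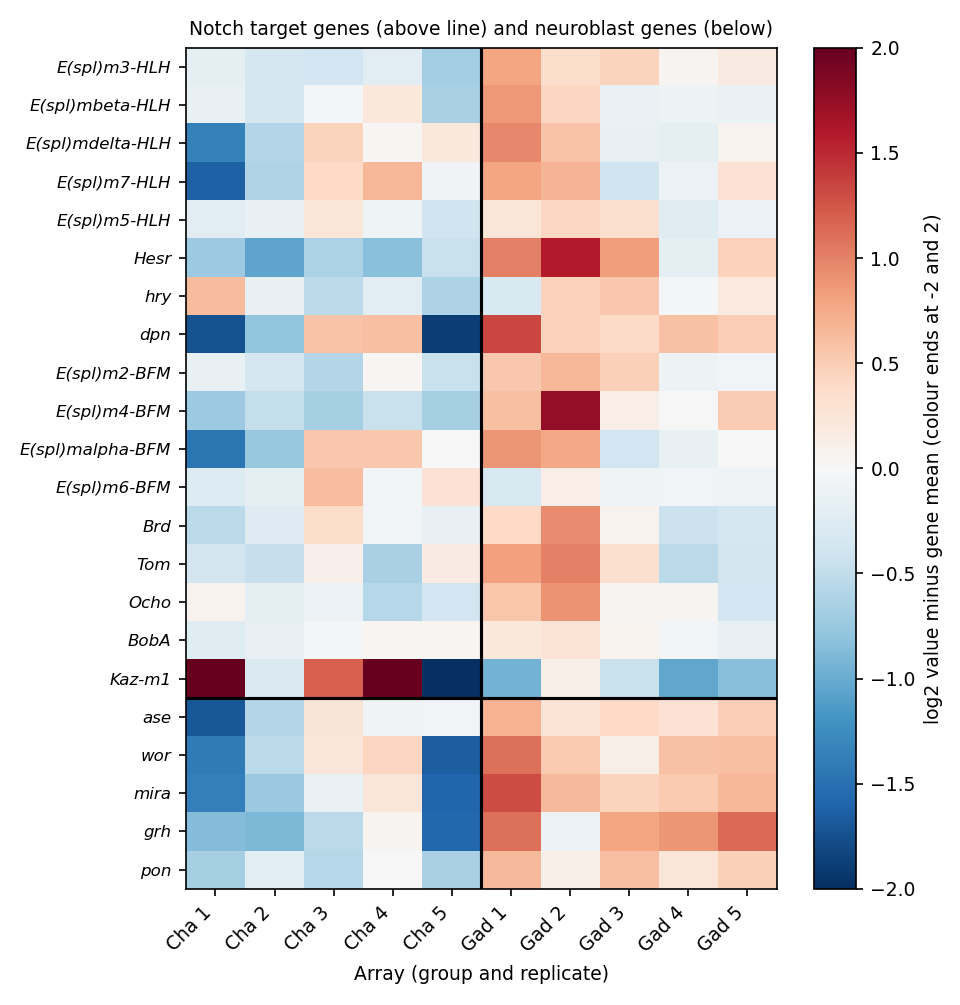
Heat map of log2 expression minus the gene's mean over the 10 arrays (colour, ending at -2 and 2), for the 17 target genes above the horizontal line and 5 neuroblast genes below it, with the 5 Cha arrays left of the 5 Gad arrays. *Hesr*, *E(spl)m3-HLH* and *E(spl)m4-BFM* are lower on all Cha arrays than on any Gad array, *Kaz-m1* runs the other way on Cha replicates 1, 3 and 4, and most of the neuroblast genes are lowest on Cha replicates 1 and 5.

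Markers of other cell types also differed between the groups, and their part in the difference of these target genes was not tested. Beside the marker counts that follow, 8.21% of all genes were higher in Cha and 10.2% higher in Gad. Of 8 neuroblast markers, none was higher in Cha and 3 (37.5%) were higher in Gad, *mira*, *grh* and *pon*. Their differences were -1.43, -1.52 and -0.84, with adjusted p of 0.0138, 0.00718 and 0.00542 in the limma fit. Of the 8 fitted differences 7 were below 0, and *pros* went the other way at 0.37 (adjusted p 0.306). The summed signal of the list was 11.03 to 12.34 in Cha and 12.30 to 13.01 in Gad on the log2 scale. In this sum and those below the brightest genes weigh most, so it need not follow every marker. *dpn* is both in this list and among the target genes. Of 5 markers of dividing cells 4 (80.0%) were higher in Gad, and *PCNA*, the brightest, did not pass (-0.38, adjusted p 0.344). The sums of the list were 10.24 to 11.49 in Cha and 11.24 to 11.81 in Gad. Of 7 glial markers 3 (42.9%) were higher in Gad, with sums of 12.39 to 12.87 in Cha and 12.96 to 13.50 in Gad. *gcm* went the other way at 0.06 (adjusted p 0.848), and *wrapper* was dim on all 10 arrays. Of 6 neuronal markers 4 (66.7%) were higher in Cha, with sums of 13.12 to 14.05 in Cha and 11.75 to 12.99 in Gad. Of 2 muscle markers 1 (50.0%), *up*, was higher in Gad (-1.11, adjusted p 0.0370). That call was lost in 8 of 10 fits that left out 1 array (adjusted p 0.0568 to 0.0910). Of those 10 fits, the call held in the 2 without Cha replicate 4 or Gad replicate 2. Of 6 hemocyte markers 1 (16.7%), *srp*, was higher in Gad (-1.73, adjusted p 0.00165). *Hml* went the other way at 0.84, with groups that did not overlap (adjusted p 0.0747), as did *Pxn* at 0.17 (adjusted p 0.727). Of 3 epithelial markers 1 was higher in Cha and 1 higher in Gad (33.3% each). The same shifts stand beside the differences of *fred*, *Nak*, *l(2)gl* and *spdo*.

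The proneural bHLH genes, which Notch signalling restrains, were listed together with *da* and *emc*. None passed (0 of 9, limma, against 18.5% of all genes). Of the 9, 2, *ase* and *emc*, had an unadjusted p under 0.05, as did 3809 of 11983 over all genes. *ac*, *amos* and *cato* were dim on all arrays. *l(1)sc* was dim on 3 Cha and 5 Gad arrays, and *sc* on 3 Cha arrays and 1 Gad array. *ase*, the member of that complex used by neuroblasts, had 7.10, 8.21, 9.05, 8.72 and 8.73 in Cha, against 9.48, 9.06, 9.19, 9.08 and 9.29 in Gad. The groups did not overlap, by a very small gap, and the difference of -0.86 had an adjusted p of 0.0792. It passed narrowly without Cha replicate 1 (-0.54, adjusted p 0.0491) or Cha replicate 3 (-1.03, 0.0485). *da*, the partner of the proneural proteins, differed by -0.04 with an adjusted p of 0.911. *emc*, their antagonist, differed by 0.26 with an adjusted p of 0.155, and by 0.35 with 0.0302 without Cha replicate 4.

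Echinoid acts at adherens junctions, where it binds Canoe and Bazooka, and it can bind Neuroglian across cells. Without *fred*, 10 partner and junction genes were measured. Of the 10, 2 were higher in Cha (against 8.21% of all genes) and 2 higher in Gad (against 10.2%). *baz*, the polarity scaffold Bazooka, averaged 4.74 ± 0.22 in Cha and 5.55 ± 0.16 in Gad (SD, n = 5 each). Its groups did not overlap, and the difference of -0.81 had an adjusted p of 0.00204, though *baz* was dim on 3 of the 5 Cha arrays. *shg*, the E-cadherin, was 0.59 lower in Cha with an adjusted p of 0.0344, and was dim on 4 Cha arrays. *alpha-Cat*, the catenin that ties cadherin to actin, averaged 11.49 ± 0.24 in Cha and 11.03 ± 0.10 in Gad (SD, n = 5 each), a difference of 0.46 with an adjusted p of 0.0220. *sdt*, the scaffold Stardust, differed by 0.55 with an adjusted p of 0.0346, while none of its 5 other probe sets passed.

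Apart from that of *baz*, each of these calls was lost when certain single arrays were left out. That of *shg* was lost without Cha replicate 1, 2, 3 or 5, and likewise without Gad replicate 3, 4 or 5 (adjusted p up to 0.0894). That of *alpha-Cat* was lost without Gad replicate 2, 3 or 5 (0.0532 to 0.0582). That of *sdt* was lost on leaving out Cha array 1, 2 or 5 or Gad array 2, 3 or 5 (up to 0.0880). The direct partners *cno* and *Nrg* differed by 0.05 and 0.20 and did not pass.

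Of the EGF receptor pathway, which Echinoid opposes in the eye, 11 of 18 genes were measured. None was higher in Cha, and 2 were higher in Gad (18.2%, against 10.2% of all genes). *Egfr*, the receptor, had 6.37, 6.42, 5.21, 6.01 and 5.76 in Cha, against 7.07, 7.23, 7.85, 6.75 and 7.02 in Gad. *aos*, the secreted inhibitor Argos and a transcriptional target of the pathway, had 7.66, 7.49, 7.44, 7.51 and 7.17 in Cha, against 8.25, 7.95, 8.38, 7.95 and 8.14 in Gad. In both genes every Cha array was below every Gad array. The differences were -1.23 for *Egfr*, with an adjusted p of 0.00837, and -0.68 for *aos*, with an adjusted p of 0.00398. The ligand *spi* and the repressor *aop* differed by -0.08 and -0.21 and did not pass.

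*fred* and *ed* lie on the same chromosome arm, with 8 genes starting between them in the gene table, of which 4 were measured. The 3 nearest measured genes on each side of either gene were examined, 10 genes in all. None passed (0 of 10, limma, against 18.5% of all genes). An unadjusted p under 0.05 was reached by 5 of the 10, and by 3809 of 11983 over all genes. The largest differences were those of *Sr-CI*, *CG15422* and *CG15423*, at 1.50, 1.38 and 1.33, with adjusted p of 0.0540, 0.0643 and 0.117. *CG15422*, which lies between *fred* and *ed*, had 9.71, 9.33, 10.99, 10.68 and 8.05 in Cha, against 8.75, 8.37, 7.89, 8.42 and 8.46 in Gad. Cha replicate 5 lay within the Gad range, and without it the adjusted p was 0.00586, while *CG15423* reached 0.0187. *Sr-CI*, a scavenger receptor gene beyond *ed*, reached 0.00736 without Cha replicate 4. *capu*, on the far side of *fred*, differed by -0.29 with an adjusted p of 0.439, and *Cep97* reached 0.0446 without Cha replicate 4.

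**Figure D5:**
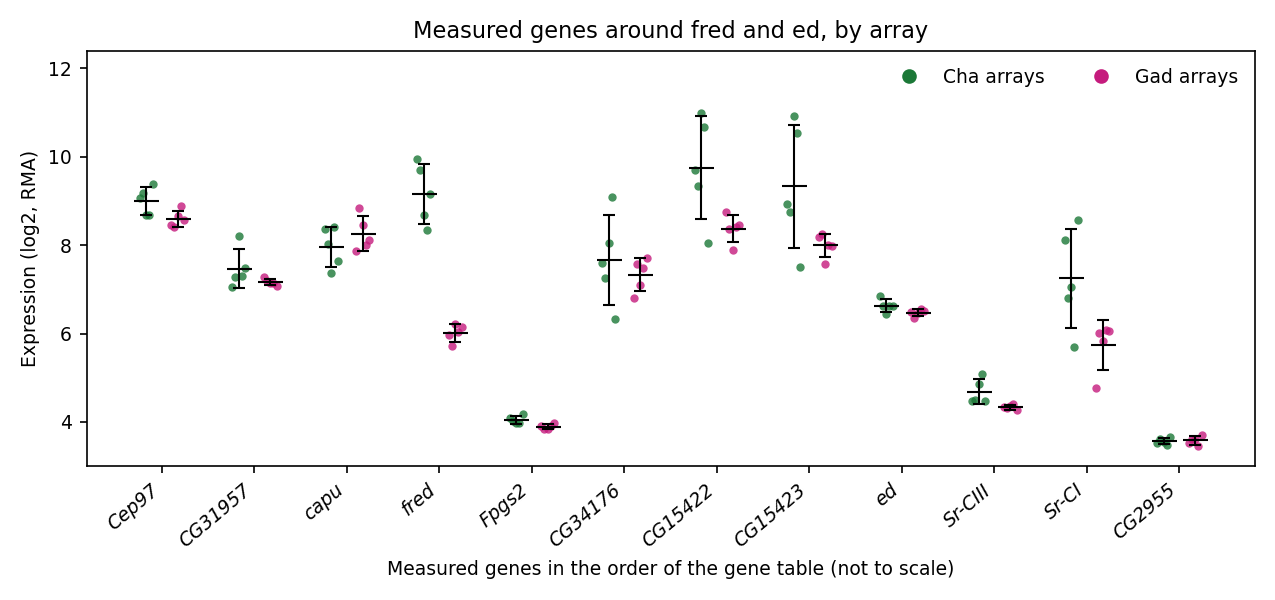
Log2 expression (vertical axis) of the measured genes around *fred* and *ed* (horizontal axis, in gene order and not to scale), with Cha arrays left of Gad arrays for each gene; points are arrays and bars are group means with SD. The Cha arrays of *fred* (8.34 to 9.94) are well above its Gad arrays (5.71 to 6.21), those of *ed* overlap, and *CG15422* is widely spread in Cha (8.05 to 10.99).

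The genes whose profile over the 10 arrays was nearest to that of *fred*, each centred on its own mean, were *Nak*, *CG10353*, *Idh3g*, *KaiR1D* and *Hmt-1*. Their root mean square distances were 0.425, 0.439, 0.449, 0.451 and 0.485 on the log2 scale. That measure is governed by the difference between the groups. With each group centred on its own mean, which leaves only variation among arrays of a group, the nearest genes were *mmd*, *MFS10*, *Vha100-1*, *tty* and *Trc8*, at 0.128, 0.130, 0.134, 0.140 and 0.157. The 2 sets share no gene. In Cha, *fred* and *Nak* were both lowest in replicates 3 and 4, as were *H* and *mmd*. *Nak* was picked for its likeness to *fred* on these same arrays, so this is not separate evidence.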

How the data were processed

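Each array was deposited as log2 expression per probe set, which the authors computed by RMA, per the submitters' processing notes (version not given in the sources used here). This method corrects background, gives all arrays 1 distribution and compresses differences of dim genes. Array medians lay between 5.70 and 5.78, and the number of arrays limits the precision. Groups and replicate numbers came from the sample titles.

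Of 18952 rows, 183 were controls. Of the other 18769 probe sets, 13647 had 1 gene symbol, 402 several and 4720 none in the platform annotation, and probe sets with several symbols named no gene. Of several probe sets of a gene, the one with the highest mean over 10 arrays was used (1094 of 11983 genes). Names were checked against a table of genes for the Release 6 assembly. Start positions in that table were used only to order the genes, and sequences were not used here.

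Cha minus Gad was fitted in limma 3.58.1, run in R 4.3.3, by lmFit and eBayes, 2-sided and with no covariates, with p-values adjusted over all genes and a threshold of 0.05. The procedure was tested on simulated data. Alternatives were other scalings, a filter on dim probe sets, array weights, another prior, a block on replicate number, left-out arrays and averaged probe sets. Beside all members, the genes named were up to 5 past the threshold with the smallest p per pathway list (otherwise the 2 brightest), the brightest and the dim genes of each marker list, 3 measured neighbours on each side of *fred* and *ed*, and 5 genes most like *fred* per centring. Any others named were chosen after their values were seen. The members, lists and tests were chosen with earlier results of these data known.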

Additional observations from a re-analysis of the deposited data

Results flagged for a closer look

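In 7 of 120 groups of 5 arrays, over the 60 genes examined, 1 array lay far from the rest by Dixon's test at its 95% critical value of 0.71, where chance gives about 1 in 20. *neur* was low in Cha replicate 1, at 7.26 against 7.93 to 8.11 on the other Cha arrays. *H* was low in Gad replicate 2, at 7.48 against 9.29 to 9.40 on the other Gad arrays, while its second probe set had 7.27 there and 7.31 on the next lowest Gad array. *l(2)gl* was high in Cha replicate 4, at 10.10 against 9.68 to 9.77. In Gad replicate 1, *pen-2* was high at 9.48 against 8.88 to 9.0 and *O-fut1*, which adds fucose to Notch, was high at 9.38 against 8.91 to 9.03. *Sr-CI* was low there, at 4.76 against 5.82 to 6.09, and *wrapper*, dim on all arrays, had 4.43 against 4.05 to 4.12.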

How the results depend on the processing

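The difference of *fred* stayed between 2.96 and 3.36 in every alternative. The number of genes higher in Cha, 984, was 352 with a replicate block. Without the 2 arrays sharing a letter code (Cha replicate 2 and Gad replicate 5) it was 382, and at an adjusted p of 0.01 it was 304. With 1 array left out it was 525 (without Gad replicate 3) to 1252 (without Cha replicate 4). The number higher in Gad, 1228, was 761, 673, 566 and 852 to 1362 in the same settings. Of the members, 0 passed, against 1 (*mam*) with median centring, with dim probe sets removed and with array weights, and 0 to 1 with 1 array left out. Pathway genes higher in Cha, 8, numbered 4 with cyclic loess, 3 with the block, 3 without the letter-code arrays, 3 at 0.01 and 3 to 11 with 1 array left out. Those higher in Gad, 12, numbered 7, 6, 6 and 9 to 13 in the last 4 of these settings. Target genes higher in Gad, 4, numbered 2 without the letter-code arrays and 2 at 0.01.

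Replicate numbers did not pair the arrays: same-numbered arrays deviated with correlations of -0.40 to 0.03, and 0 of 5 numbers matched best. With the block the adjusted p was 0.0778 for *dx*, 0.0794 for *spdo* and 0.0918 for *insv*. Without the letter-code arrays it was 0.0628, 0.0976 and 0.0692, and 0.0579 for *E(spl)m4-BFM*. With Gad replicates 4 and 5 averaged, an alternative chosen after seeing the data, that of *spdo* was 0.0505. *CG15422* and *Sr-CI* passed with dim probe sets removed (0.0474 and 0.0394) and with array weights (0.0252 and 0.0235), and *Sr-CI* with a second quantile normalization (0.0484).

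Over 60 genes and 1196 single comparisons, 1057 kept direction and side of the threshold, 92 lost and 28 gained a call, and 19 turned direction, all with small differences. Those were *da* (0.0794 with array weights), *crq* and *CG2955* (0.00822 and 0.00205 without the letter-code arrays) and *tty* (0.0331 with array weights). With 1 array left out, the range was -0.0418 to 0.203 for *kuz*, -0.169 to 0.0727 for *da*, -0.169 to 0.0306 for *crq*, -0.0229 to 0.667 for *CG34176*, -0.0503 to 0.0119 for *CG2955*, -0.365 to 0.166 for *tty* and -0.332 to 0.006 for *Trc8*. The causes were not tested. *fred* had no test, so it counted as kept where its direction held and its difference moved by less than its larger group SD. Rescaling moved the median of all genes to between 0.006 and 0.06. Background correction could not be varied on the summarised values used here.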

Other observations

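Single arrays stood out over several genes at once. Gad replicate 2 had the lowest Gad value in 6 of the 7 measured members, and Cha replicate 4 the lowest Cha value in 4 of the 7. Over all 79 measured pathway genes this was much weaker: Gad replicate 2 was lowest in 25 and highest in 16, and Cha replicate 4 was lowest in 22 and highest in 21. Over the 17 target genes the pattern in Gad differed: Gad replicate 2 was highest in 10 and never lowest, and Gad replicate 4 was lowest in 9 and never highest. In Cha, replicates 1 and 5 were lowest in 7 and 6 of the 17. The neuronal gene *elav* was also low in Gad replicate 2, at 7.59, against 9.08 to 9.71 on the other Gad arrays, and its Cha arrays ran between 8.70 and 10.08. These counts were made after the values were seen.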
